A study of Mus musculus with 2 samples.

Results

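A set of 10 genes of gp130 cytokine signalling was followed in single cells of the mouse cornea. They are the oncostatin M gene *Osm*, the related cytokine genes *Lif*, *Clcf1*, *Il6* and *Il11*, the receptor genes *Osmr*, *Lifr* and *Il6st*, the transcription factor gene *Stat3* and its feedback inhibitor gene *Socs3*, 10 of the 20198 genes in the deposited table of UMI counts (a UMI, or unique molecular identifier, marks 1 captured RNA molecule). They were chosen by name, with earlier results of these data known. Cells came from 2 libraries, UW from unwounded male mice and W from male mice collected 24 h after the central corneal epithelium was scraped off. Each library pooled 8 corneas of 4 mice aged 6 to 8 weeks. There is 1 library per condition, so wounding cannot be told apart from any other difference between the libraries, no test across conditions was made, and every interval below covers counting error only.

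The UW library held 16450 cells and the W library 12417, with medians of 22014 and 20290 UMIs per cell, and 52 cell barcodes occurred in both. The 17 deposited clusters were checked against fixed markers, and those that did not meet the rule kept their number only. The 10 clusters that scored highest on a list of epithelial, mitotic or S phase markers were corneal epithelial cell (CEpC)-like, with 13501 cells in UW and 8507 in W. Among them, cluster 3 was led by *Lamb3* and *Krt18*, cluster 11 by S phase genes such as *Mcm3*, cluster 8 by mitotic genes such as *Top2a*, cluster 1 by *Pygl* and *Dapl1*, cluster 4 by *Dsg1a*, cluster 2 by *Ly6g6c* and *Spink5*, clusters 6 and 7 by *Krt78* and *Lce3a* of the superficial layers, cluster 9 by *Wfdc18* and *Dlk2*, and cluster 5 by *Krt4* and *Krt19*, keratins of the conjunctiva. Cluster 0, led by *Kera*, was corneal stromal cell (CSC)-like, with 2369 cells in UW and 1719 in W. Cluster 10 (565 and 632 cells), led by *Penk* and *Myoc*, was left unnamed. It held *Kera* at 2747 CPM in UW and 795 CPM in W, against 7482 and 2537 CPM in CSC-like cells. It scored highest on the corneal endothelial list, at 2.99, against 1.76 on the CSC list. Over both libraries *Col8a1*, *Col8a2*, *Slc4a11* and *Car3* of the endothelial list were at 250, 684, 26.1 and 281 CPM. In cluster 0 they were at 7.05, 233, 1.77 and 6.54 CPM. Clusters 13 to 17 lay almost wholly in W. Cluster 13 (710 W cells) held *S100a8* at 13610 CPM (UMIs per 1000000 UMIs) and *Csf3r* at 409 CPM, markers of neutrophils, and was left unnamed because its cells were shallow (median 2510 UMIs) and none of the fixed neutrophil markers was among its leading genes. Cluster 14 (354 W cells) was dendritic cell (DC)-like, with *C1qa*, *C1qb* and *C1qc*, genes of macrophages, among its leading genes and *Lyz2* at 5930 CPM, cluster 15 (251) monocyte lineage (Mono)-like and cluster 16 (215) T cell (T)-like. Cluster 16 scored next highest on the mast cell list, with *Cpa3* at 286 CPM and *Mcpt4* at 366 CPM. Cluster 17 (29 cells) held both *Kera* (2598 CPM) and *S100a8* (1578 CPM) and was left unnamed. RNA of other cell types was present in the immune clusters of W, where the epithelial gene *Krt12* stood between 1247 and 6048 CPM in clusters 13 to 16, against 12350 CPM in CEpC-like cells.

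Cytokines of this family signal through a shared receptor chain, gp130, the product of *Il6st*. In the mouse, oncostatin M acts mainly through gp130 paired with the product of *Osmr*, while leukaemia inhibitory factor uses gp130 with the product of *Lifr*. The receptors activate JAK kinases, which phosphorylate STAT3. STAT3 enters the nucleus and switches on genes that include *Socs3*, whose product binds gp130 and the JAKs and shuts the signal down. The family is known for acute responses to injury and infection, and oncostatin M is made mainly by myeloid and T cells.

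Some of the genes are neighbours. In GENCODE M21 (GRCm38), *Osm* (chr11:4236420-4241026, plus strand) and *Lif* (chr11:4257557-4272514, plus strand) are 16.5 kb apart, and *Osmr* (chr15:6813577-6874969, minus strand) and *Lifr* (chr15:7090614-7197489, plus strand) are 215.6 kb apart. *Socs3* lies at chr11:117966079-117970047 on the minus strand, *Il6* at chr5:30013114-30019981 on the plus strand, *Il11* at chr7:4772373-4782859 on the minus strand and *Il6st* at chr13:112464070-112510086 on the plus strand. *Stat3* (chr11:100885098-100939540, minus strand) overlaps *Stat5a* on the other strand. *Clcf1* (chr19:4214238-4223490, plus strand) overlaps AC109138.7 on its own strand, and its counts are uncertain to that extent.

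RefSeq promoter entries (GRCm38.p6) were held for 8 of the 10 genes. The 250 bases before the RefSeq transcription start were searched on both strands for TTCNNNGAA, the STAT motif. They were also searched for TGACTCA, the motif of AP-1 (Fos and Jun). TTCNNNGAA was found in 7.02% of the 32851 promoters in the table and in 1 of these 8 genes, *Socs3*, and TGACTCA in 4.46% of promoters and in 3, *Lif*, *Il6* and *Il11*. The stretches before *Socs3* (chr11:117969367-117969616, minus strand), *Lif* (chr11:4257318-4257567, plus strand) and *Osmr* (chr15:6874314-6874563, minus strand) are shown as 2 genes with a match and the receptor gene of oncostatin M. Capitals mark the matches, which begin 154 bases before the RefSeq start in *Socs3* and 228 bases before it in *Lif*. *Osmr* has none. By the GENCODE positions above, the stretches of *Socs3*, *Osmr* and *Lifr*, and the *Il11* stretch with a match, lie wholly within the gene. A match is a description of letters and shows no binding.

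Socs3: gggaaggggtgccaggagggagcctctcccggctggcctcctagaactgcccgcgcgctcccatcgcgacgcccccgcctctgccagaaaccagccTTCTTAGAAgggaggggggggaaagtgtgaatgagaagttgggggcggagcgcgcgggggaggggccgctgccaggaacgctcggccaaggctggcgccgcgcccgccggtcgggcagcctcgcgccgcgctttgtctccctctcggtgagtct
Lif: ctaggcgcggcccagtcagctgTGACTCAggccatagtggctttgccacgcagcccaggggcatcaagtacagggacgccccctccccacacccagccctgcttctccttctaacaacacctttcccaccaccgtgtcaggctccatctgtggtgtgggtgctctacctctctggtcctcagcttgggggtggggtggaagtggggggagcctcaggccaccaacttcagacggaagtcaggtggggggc
Osmr: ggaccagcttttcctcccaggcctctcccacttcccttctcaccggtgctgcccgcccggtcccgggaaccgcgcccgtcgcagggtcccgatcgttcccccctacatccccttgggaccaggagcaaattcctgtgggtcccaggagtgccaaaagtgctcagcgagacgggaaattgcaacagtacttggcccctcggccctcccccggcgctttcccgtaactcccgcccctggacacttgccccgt

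The level of each gene was given as CPM over the cells of a cluster or class in a library, with an exact Poisson 95% interval, and differences between libraries as the log2 ratio of CPM, W over UW. These are counts of 3' tags, so levels were compared between clusters and libraries for a gene, not between genes.

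**Figure D1:**
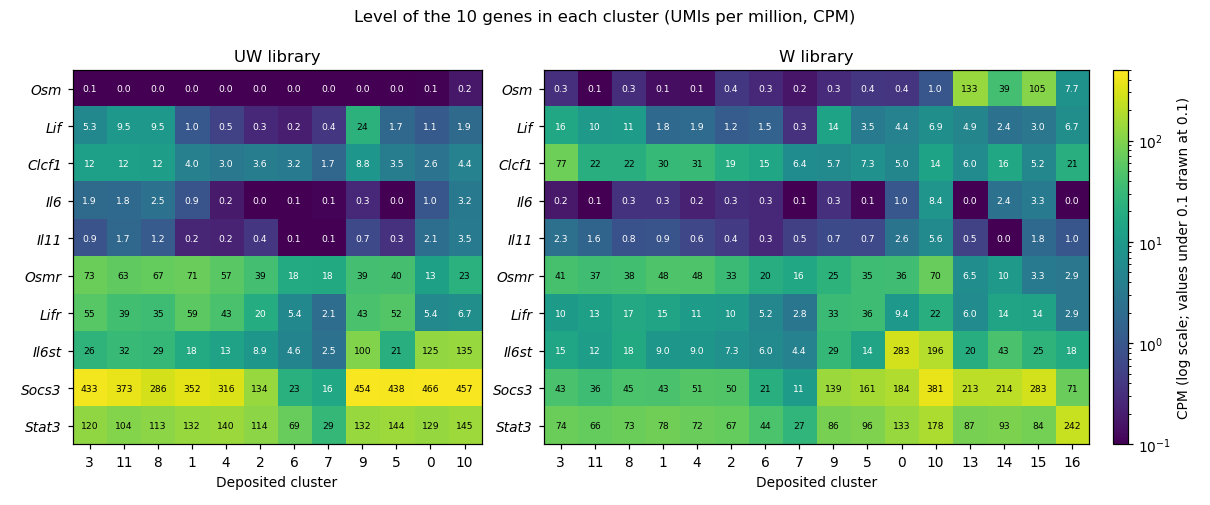
Level of each gene in CPM (colour, log scale, and the number in each cell) by deposited cluster in the UW and W libraries; clusters run from epithelial (3 to 5) to clusters 0 and 10 and, in W only, immune (13 to 16). *Osm* was between 39.3 and 133 CPM in clusters 13, 14 and 15 of W and at most 0.962 CPM in the clusters numbered 0 to 11.

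*Osm* was found in the immune clusters of W and barely elsewhere. The W library held 774 *Osm* UMIs in 415 cells, and the UW library 11 UMIs in 10 cells. Clusters 13, 14 and 15 made up 10.6% of W cells and held 674 of the 774 UMIs (87.1%, exact Clopper-Pearson 95% interval 84.5 to 89.4%). In order of level, *Osm* was at 133 CPM (117 to 151) in cluster 13, 105 CPM (93.3 to 118) in cluster 15, 39.3 CPM (33.2 to 46.3) in cluster 14, 15.01 CPM (6.48 to 29.6) in cluster 17 and 7.70 CPM (3.32 to 15.2) in cluster 16. The intervals of clusters 13 and 15 overlapped, as did those of clusters 16 and 17, and cluster 14 stood between the pairs. Of the 11 UMIs in UW, 2 came from the only UW cell of cluster 13.

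**Figure D2:**
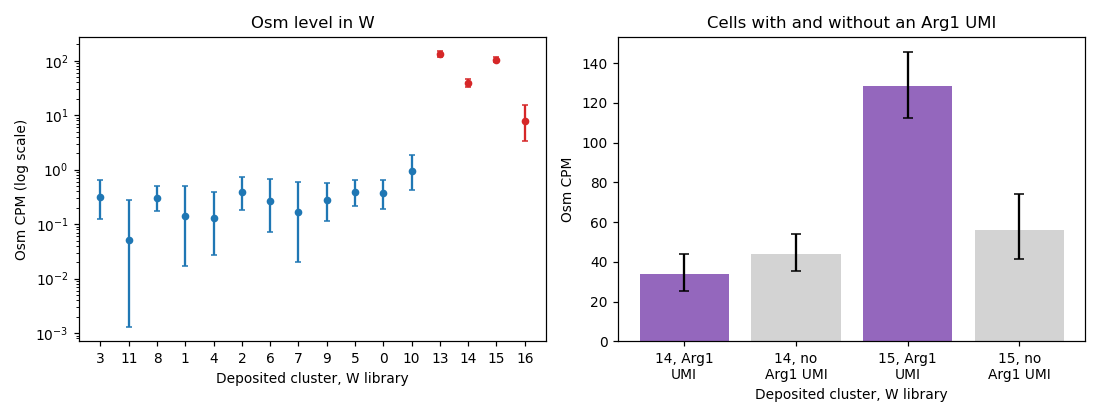
Left, *Osm* level (CPM, log axis, points with 95% Poisson intervals) by deposited cluster in W, with immune clusters in red and the others in blue. Right, *Osm* level (CPM, bars from 0 with 95% intervals) in cells of clusters 14 and 15 with and without an *Arg1* UMI, where cluster 15 cells with *Arg1* stand at 128 CPM and those without at 56.2 CPM.

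The ranking by cells differed from the ranking by CPM. An *Osm* UMI was present in 119 of 251 cells of cluster 15 (47.4%, 41.1 to 53.8%), 76 of 354 of cluster 14 (21.5%, 17.3 to 26.1%) and 131 of 710 of cluster 13 (18.5%, 15.7 to 21.5%). Their median depths were 10144, 8724 and 2510 UMIs. With each cell thinned to 2000 UMIs the shares were 15.9% in cluster 15, 15.1% in cluster 13 and 8.45% in cluster 14, with 0, 126 and 58 cells left out as too shallow. In the CEpC-like cells of W 0.682% of cells (0.518 to 0.880%) held a UMI at a median depth of 25553, and thinned to 2000 UMIs 0.0471%. The CEpC-like cells held 5 *Osm* UMIs in UW and 64 in W, 0.0150 and 0.268 CPM. The myeloid gene *Lyz2* was at 0.898 CPM in these cells in UW and at 14.8 CPM in W, and the source of the *Osm* UMIs of CEpC-like cells was not tested.

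Cluster 15 was the cluster with the most *Arg1* (arginase 1, made by macrophages of wounds), at 1333 CPM. The superficial clusters 6 and 7 and cluster 2 of W followed, at 665, 346 and 478 CPM, above cluster 14 at 251 CPM. In cluster 15, *Osm* was at 128 CPM (113 to 146) in the 172 cells with an *Arg1* UMI and at 56.2 CPM (41.6 to 74.3) in the 79 without one, a log2 ratio of 1.19 (0.74 to 1.67). In cluster 14 the values were 33.7 CPM (117 cells) and 44.0 CPM (237 cells), a log2 ratio of -0.38 (-0.89 to 0.12). In the shallower cluster 13 they were 98.1 CPM (52.2 to 168, 48 cells) and 136 CPM (119 to 154, 662 cells). Thinned to 2000 UMIs the log2 ratio in cluster 15 was 0.23, on 29 and 22 *Osm* UMIs in cells with and without *Arg1*. In cluster 14 it was 0.66, on 9 and 21 UMIs. In both clusters the CPM intervals with and without *Arg1* overlapped at that depth. Thinned to 5000 UMIs, a depth added after seeing the data, the ratios were 1.21 in cluster 15 and 0.05 in cluster 14. *Arg1* was also high in epithelial cells, at 175 CPM in CEpC-like cells of W against 8.26 CPM in CSC-like cells, and the part of free epithelial RNA in the *Arg1* UMIs of immune cells was not tested.

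*Clcf1*, a gp130 ligand of the interleukin 6 family, was higher in W in 9 of the 10 CEpC-like clusters, by interval, and lower in cluster 9. In all CEpC-like cells it stood at 4.98 CPM in UW (1658 UMIs) and 23.1 CPM in W (5517), a log2 ratio of 2.21 (2.13 to 2.29). Among the clusters it was 12.4 and 76.9 CPM in cluster 3, and the largest ratio was in cluster 4, 3.01 and 31.5 CPM (log2 ratio 3.39, 3.11 to 3.67). In cluster 9 the values were 8.80 and 5.70 CPM (-0.63, -1.05 to -0.18). In CSC-like cells *Clcf1* was at 2.57 and 4.96 CPM (0.95, 0.54 to 1.37) and in cluster 10 at 4.38 and 13.9 CPM (1.67, 1.04 to 2.36). A UMI was found in 31.8% of CEpC-like cells of W (30.8 to 32.8%) and in 1.55% of the shallower cells of cluster 13, and thinned to 2000 UMIs in 4.75% and 1.03%. Of the other immune clusters of W, cluster 15 had 5.17 CPM (14 UMIs), but there were 16.01 CPM in cluster 14 (12.2 to 20.7, 59 UMIs) and 21.2 CPM in cluster 16 (13.3 to 32.1, 22 UMIs), and thinned to 2000 UMIs the shares of cells were 0.797%, 2.70% and 5.85% in clusters 15, 14 and 16.

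CEpC-like cells held 94.7% of the *Lif* UMIs in UW and 87.9% in W, where they were 82.1% and 68.5% of the cells and held 332977270 of 367166822 and 239014699 of 289586482 UMIs of all genes. By interval, *Lif* was higher in W in 6 of the 10 epithelial clusters and lower in 1. The pooled difference depended on how the clusters were weighted. In CEpC-like cells it was at 2.30 CPM in UW (766 UMIs) and 7.14 CPM in W (1706), a log2 ratio of 1.63 (1.51 to 1.76), but with each cluster given the same weight the log2 ratio was 0.24. Among the clusters with most *Lif*, cluster 9 had 23.9 and 13.9 CPM (-0.79, -1.05 to -0.52), clusters 8 and 11 had 9.46 to 11.2 CPM in both libraries, with ratios whose intervals held 0, and cluster 3 had 5.31 and 16.2 CPM (1.61, 1.34 to 1.88). CSC-like cells had 1.13 and 4.44 CPM (1.98, 1.42 to 2.58, and 1.39 thinned to 5000 UMIs) and cluster 10 had 1.93 and 6.85 CPM (1.83, 0.88 to 2.91). The UMIs were unevenly spread, and a single CEpC-like cell of W held 25.

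*Il6* and *Il11* were rare. The UW library held 236 *Il6* UMIs and the W library 178, and of these CEpC-like cells held 190 and 57 (0.571 and 0.238 CPM, log2 ratio -1.26, -1.71 to -0.82). By interval it was lower in W in 4 of the 10 epithelial clusters and higher in 1. It was at 1.92 and 0.177 CPM in cluster 3 (63 and 4 UMIs) and at 2.50 and 0.349 CPM in cluster 8 (32 and 17 UMIs), and the cluster with more in W was cluster 2, with 2 and 7 UMIs (log2 ratio 3.21, 0.82 to 6.52). In cluster 10 the value was higher in W, at 3.15 CPM (18 UMIs) and 8.41 CPM (70 UMIs), a log2 ratio of 1.42 (0.65 to 2.25), with as many as 11 UMIs in a single W cell. *Il11*, a cytokine made by fibroblasts, was at 0.396 and 0.891 CPM in CEpC-like cells (1.17, 0.85 to 1.49, and 0.62 with clusters weighted alike), 2.14 and 2.62 CPM in CSC-like cells (0.29, -0.20 to 0.79) and 3.50 and 5.65 CPM in cluster 10 (0.69, -0.09 to 1.52). In CSC-like cells *Il6* counted 28 and 33 UMIs (0.05, -0.72 to 0.83), and a difference in either gene was not detectable there at this depth.

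*Osmr*, the oncostatin M receptor gene, was lower in W in the epithelium and higher in clusters 0 and 10. In CEpC-like cells it was at 47.2 CPM (46.5 to 47.9) in UW and 35.3 CPM (34.6 to 36.1) in W, a log2 ratio of -0.42 (-0.46 to -0.38), and the interval lay below 0 in 8 of the 10 clusters. The largest epithelial difference was in cluster 3, 73.3 and 41.3 CPM (-0.83, -0.94 to -0.72). CSC-like cells had 12.9 CPM (11.6 to 14.3) in UW and 36.4 CPM (34.3 to 38.5) in W, a log2 ratio of 1.50 (1.33 to 1.67), and cluster 10 had 23.1 and 69.8 CPM (1.60, 1.32 to 1.88). The difference in the ratio between these classes was not tested. In cluster 13 *Osmr* was at 6.54 CPM and in 1.69% of cells, and cluster 13 also held the epithelial gene *Krt12* at 3584 CPM.

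*Lifr* was between 35.0 and 59.3 CPM in 7 epithelial clusters of UW and lower in W in each of them. In clusters 2, 6 and 7 it was at 19.7, 5.40 and 2.07 CPM in UW and 9.57, 5.24 and 2.85 CPM in W. The log2 ratios of *Lifr* there were -1.04, -0.04 and 0.46, and the intervals of clusters 6 and 7 held 0. In clusters 3, 1 and 4 its CPM in UW and W was 54.6 and 10.2 (log2 ratio -2.41, -2.62 to -2.22), 59.3 and 14.6 (-2.02, -2.23 to -1.82), and 43.5 and 10.6 (-2.04, -2.24 to -1.84). Clusters 5 and 9 had 35.8 and 33.2 CPM in W, against 52.0 and 42.8 in UW, and were the clusters with the most *Lifr* in W. In cluster 0 it was at 5.45 and 9.40 CPM (0.79, 0.50 to 1.07) and in cluster 10 at 6.65 and 21.5 CPM (1.69, 1.18 to 2.24). Over all CEpC-like cells the log2 ratio was -0.93 (-0.98 to -0.88). Scaled by trimmed means of M values (TMM) it was -1.14, past 2-fold.

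*Il6st*, the gp130 gene, had higher levels in clusters 0 and 10 than in any epithelial cluster, and was higher in W than in UW in both. The 29 cells of cluster 17 in W held 253 CPM. CSC-like cells held 125 CPM in UW (121 to 130) and 283 CPM in W (277 to 289), a log2 ratio of 1.17 (1.12 to 1.23), and cluster 10 held 135 and 196 CPM (0.54, 0.41 to 0.66). A UMI was present in 74.1% of CSC-like cells of UW and 96.7% of those of W at median depths of 11853 and 17588 UMIs, and thinned to 5000 UMIs in 46.4% and 74.5%. In CEpC-like cells it was at 16.2 and 13.9 CPM, and its log2 ratio of -0.22 (-0.28 to -0.16) was -1.05 with clusters weighted alike. Cluster 9, with the highest epithelial level in UW, had 99.5 CPM in UW and 29.1 CPM in W (log2 ratio -1.78, -1.92 to -1.63), and in cluster 7 the level was higher, 2.48 and 4.35 CPM (0.81, 0.29 to 1.32).

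In clusters 0 and 10 of W the shares of cells with an *Osmr* UMI, with an *Il6st* UMI and with both were higher than in UW. With each cell thinned to 5000 UMIs, 67 of 2318 CSC-like cells of UW (2.89%, 2.25 to 3.66%) and 225 of 1708 of W (13.2%, 11.6 to 14.9%) held both an *Osmr* and an *Il6st* UMI. With or without the other gene, *Osmr* was in 5.91% and 16.9% of these cells and *Il6st* in 46.4% and 74.5%, and whether both met in a cell more often than these shares give was not tested. The shares with both were 4.94% and 16.1% in cluster 10, and 1.87% and 1.10% in CEpC-like cells. For *Lifr* with *Il6st* the shares were 1.17% and 3.51% in CSC-like cells and 1.91% and 0.960% in CEpC-like cells.

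**Figure D3:**
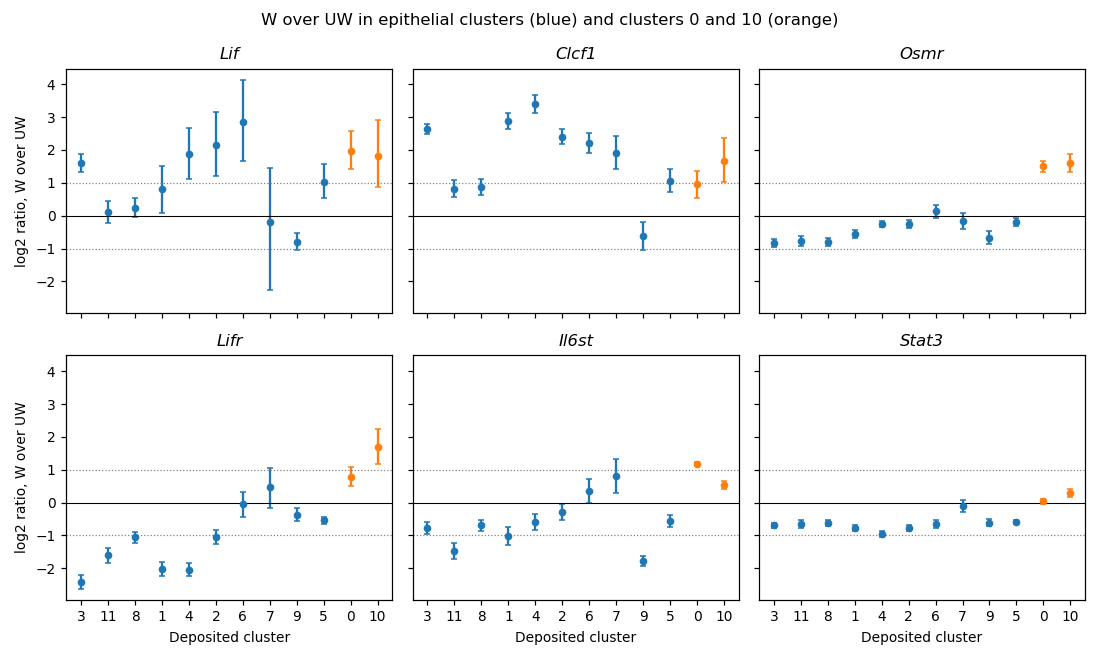
Log2 ratio of CPM, W over UW, of *Lif*, *Clcf1*, *Osmr*, *Lifr*, *Il6st* and *Stat3* by deposited cluster (points with exact 95% counting intervals; epithelial clusters blue, clusters 0 and 10 orange; dotted lines mark 2-fold). *Osmr* is below 0 in 9 of the 10 epithelial clusters, at 0.14 in cluster 6, and at 1.50 and 1.60 in clusters 0 and 10.

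*Stat3*, the transcription factor gene, was found in every cluster. In CEpC-like cells it was at 108 and 73.0 CPM (log2 ratio -0.57, -0.60 to -0.54), in CSC-like cells at 129 and 133 CPM (0.04, -0.03 to 0.10) and in cluster 10 at 145 and 178 CPM (0.30, 0.17 to 0.42). In the 10 epithelial clusters its ratio ran from -0.95 to -0.10. Cluster 16, T-like with mast cell genes, had the most in W, 243 CPM (213 to 274).

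*Socs3*, the feedback gene, was lower in W in 9 of the 10 CEpC-like clusters, by interval, and in clusters 0 and 10. In CEpC-like cells it counted 81041 UMIs in UW and 16516 in W, 243 CPM (242 to 245) and 69.1 CPM (68.1 to 70.2), a log2 ratio of -1.82 (-1.84 to -1.79). Cluster 3 had 433 CPM in UW and 43.2 in W (log2 ratio -3.33, -3.42 to -3.23). Cluster 11 had 373 and 35.7 CPM (-3.39), cluster 1 had 352 and 43.4 (-3.02), cluster 8 had 286 and 44.7 (-2.68), and cluster 4 had 316 and 51.1 (-2.63). Clusters 5 and 9 had the highest epithelial levels in W, 161 and 139 CPM, against 438 and 454 in UW. The superficial clusters 6 and 7 held little in either library, 22.6 and 20.6 CPM, and 15.8 and 11.2 CPM, and the interval of cluster 6 held 0 (-0.32 to 0.06). CSC-like cells had 466 and 184 CPM (-1.34, -1.39 to -1.30), and cluster 10 had 457 and 381 CPM (-0.26, -0.34 to -0.19). In W, the immune clusters 13, 14 and 15 held 213, 214 and 283 CPM.

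The shares of cells with *Socs3* were lower as well. Thinned to 5000 UMIs, 46.9% of CEpC-like cells in UW and 21.7% in W held a UMI, and 80.7% and 54.0% of CSC-like cells, against 75.3% and 71.9% in cluster 10.

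**Figure D4:**
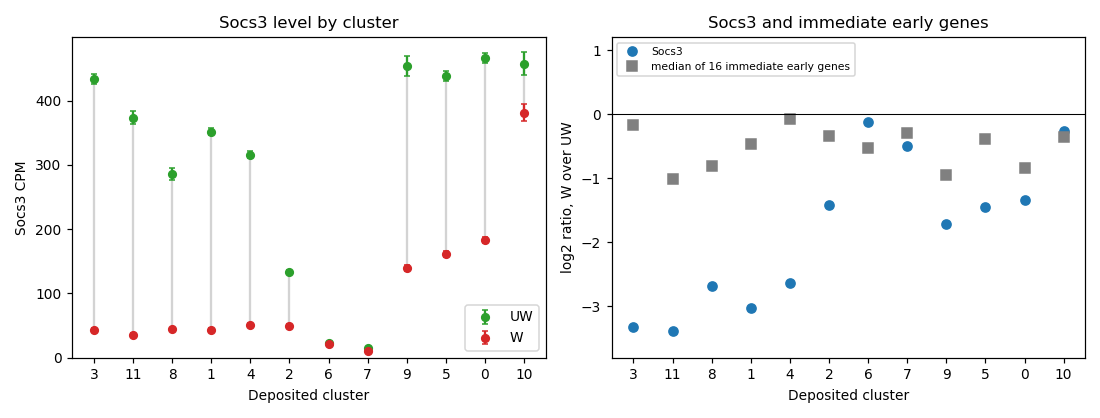
Left, *Socs3* level (CPM, with 95% Poisson intervals) in UW (green) and W (red) by deposited cluster. Right, log2 ratio, W over UW, of *Socs3* (blue circles) and the median of 16 immediate early genes of dissociation (grey squares). In cluster 3 the values are -3.33 and -0.16.

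Tissue dissociation is known to raise immediate early genes, and the study removed some cells for such a signature, so a list of 16 such genes was set beside it. In CEpC-like cells 11 of the 16 were lower in W and 5 higher, with a median log2 ratio of -0.77, and *Egr1* (-1.75), *Jund* (-1.08) and *Fos* (-1.03) were lower by 2-fold or more, while *Nr4a1* (0.82), *Jun* (0.22) and *Dusp1* (0.13) were higher. Scaled by TMM or size factors, 8 of the 16 were at least 2-fold lower there, in place of 3. In CSC-like cells 7 were lower by 2-fold or more, *Egr1* (-2.52), *Fos* (-2.50), *Fosb* (-1.97), *Btg2* (-1.86), *Zfp36* (-1.70), *Jun* (-1.43) and *Ier2* (-1.26), while *Hsp90aa1* (0.16), *Atf3* (-0.18) and *Junb* (-0.48) were highest. Cluster 10 had a median of -0.35 and 1 gene past 2-fold, *Nr4a1*, at 1.10, followed by *Junb* (0.47) and *Hsp90aa1* (0.26), and *Egr1* (-0.996), *Fos* (-0.92) and *Btg2* (-0.70) were lowest. Across the 10 epithelial clusters, the list's median ran from -1.01 in cluster 11 to -0.07 in cluster 4, where *Socs3* was at -3.39 and -2.63. In clusters 3, 1 and 4, 2, 2 and 3 of the 16 genes were at least 2-fold lower and 1, 2 and 2 at least 2-fold higher. Those higher were *Dusp1* (1.80, 1.68 and 1.60) and, in clusters 1 and 4, *Nr4a1* (1.44 and 2.03). In clusters 6 and 10 the list's median (-0.53 and -0.35) lay below the ratio of *Socs3*. The part of these genes in the *Socs3* difference was not tested.

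The members were also counted beside all genes. They and the gene lists had been chosen with earlier results of these data known. A gene with at least 20 UMIs over both libraries of a class was counted as past 2-fold at a log2 ratio of 1 or more or -1 or less. In CEpC-like cells 4 of 10 members were at least 2-fold higher in W, *Osm*, *Lif*, *Clcf1* and *Il11*, where 21.8% of all 16439 genes were, and 2 of 10, *Il6* and *Socs3*, were at least 2-fold lower, where 8.77% were. *Osm* there rests on 5 and 64 UMIs of untested source. *Il11* was under 2-fold when scaled by TMM (log2 ratio 0.96) or size factors (0.96) and with clusters weighted alike (0.62), as was *Lif* with clusters weighted alike (0.24). *Lifr* was past 2-fold lower scaled by TMM (-1.14) or size factors (-1.14), as a mean over cells (-1.06) and with clusters weighted alike (-1.22), as was *Il6st* with clusters weighted alike (-1.05). In CSC-like cells 3 of the 9 members counted, *Lif*, *Osmr* and *Il6st*, were higher (7.34% of 14245 genes) and *Socs3* lower (9.67%). *Clcf1*, at 0.95 there, was also past 2-fold higher when scaled by TMM or size factors. In cluster 10, 5 of 9 were higher, *Lif*, *Clcf1*, *Il6*, *Osmr* and *Lifr* (4.97% of 12441 genes), and none lower (6.63%). *Osm* did not reach 20 UMIs in CSC-like cells or cluster 10. Median log2 ratios were -0.32 over the members and 0.22 over all genes in CEpC-like cells, 0.79 and -0.15 in CSC-like cells, and 1.42 and -0.09 in cluster 10.

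Of 25 other genes of the pathway (ligands, receptors, kinases and inhibitors), 22 were counted in CEpC-like cells. Of these, 2 passed 2-fold, both higher, where 21.8% of all genes were higher and 8.77% lower. They were *Il27* (4 and 17 UMIs, log2 ratio 2.57) and *Ebi3* (0.114 and 0.326 CPM, 1.52), the subunit genes of interleukin 27, and the median of the list was 0.32. The lowest were *Pias1* (-0.78), *Cish* (-0.77) and *Jak1* (-0.76, 188 and 111 CPM). In CSC-like cells 2 of 21 passed 2-fold, both higher (7.34% of all genes, median of the list 0.12), among them *Il31ra*, with 3 and 20 UMIs, at 2.55. *Socs2* was at 0.78, and *Ctf1* (-0.66), *Cish* (-0.44) and *Pias1* (-0.44) were lowest. In cluster 10, *Socs1*, another SOCS inhibitor gene, was at 1.12 (1 of 20 past 2-fold, 4.97% of all genes higher, median of the list 0.28), and *Ptpn2* was at 0.70, and *Gab1* (-0.60), *Ctf1* (-0.22) and *Pias1* (-0.07) were lowest. *Il11ra1* and *Cntfr*, receptors for interleukin 11 and CNTF, had 11112 and 1038 UMIs in CSC-like cells of UW, and their ratios there were -0.23 and 0.35.

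A list of 24 genes known to respond to STAT3 was counted in the same way. In CEpC-like cells 10 of the 24 were at least 2-fold higher (21.8% of all genes were), *Timp1* (6.51), *Serpina3n* (5.36), *Lrg1* (3.19), *Birc5* (2.65), *Fgl2* (1.92), *Steap4* (1.86), *Il4ra* (1.60), *Icam1* (1.57), *Vegfa* (1.07) and *Myc* (1.07), and 1, *Fos*, at least 2-fold lower, while *Junb* (-0.84) and *Gadd45g* (-0.48) came next. Scaled by TMM or size factors, which was added after seeing the data, *Vegfa* and *Myc* were under 2-fold and *Junb* past 2-fold lower, leaving 8 of 24 higher and 2 lower, against 17.6% and 12.4% of all genes with TMM. The median of the list was 0.60, and of all genes 0.22. In CSC-like cells 9 of 23 were higher (7.34% of all genes), led by *Timp1*, an inhibitor of matrix proteases, with 6 UMIs in UW and 16781 in W (log2 ratio 11.26), and *Serpina3n*, with 47 and 10201 (7.57), and *Fgl2* (2.39), while *Fos* (-2.50), *Junb* (-0.48) and *Hif1a* (-0.35) were lowest. The list's median there was 0.82, and of all genes -0.15. In cluster 10, 9 of 23 were higher (4.97% of all genes), with *Serpina3n* at 4.79, *Timp1* at 4.00 and *Myc* at 3.12, and *Fgl2* was lower (-1.23), with *Fos* at -0.92 and *Ccnd1* at -0.57, and a median of 0.74, against -0.09 over all genes. In CEpC-like cells of W *Timp1* was at 11.2 CPM, against 517 CPM in CSC-like cells, and the part of free stromal RNA was not tested. *Lrg1*, with 21 and 138 UMIs in CEpC-like cells, was among the leading genes of cluster 13, and the myeloid genes *S100a8* (0.838 and 156 CPM) and *Lyz2* (0.898 and 14.8 CPM) were also higher in CEpC-like cells of W. Their part in the list's values was not tested. *Birc5*, which acts in cell division, was also at least 2-fold higher in CSC-like cells and cluster 10. The mitotic cluster 8 had 535 cells in UW and 1332 in W, and its part in the *Birc5* value of CEpC-like cells was not tested. *Fos* and *Junb* are in both this list and the immediate early list.

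Scaling moved the reference point by more than 0.1 on the log2 scale in CEpC-like and CSC-like cells, and by 0.08 (TMM) in cluster 10. TMM factors shifted the log2 ratios by -0.21 in CEpC-like cells and by 0.15 in CSC-like cells. With this scaling *Socs3* stood at -2.02 and -1.19, and *Osmr* at -0.62 and 1.65, and no member changed direction. In CEpC-like cells 2894 genes were then at least 2-fold higher and 2032 lower, in place of 3587 and 1442, and in CSC-like cells 1249 and 1035, in place of 1045 and 1378.

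In W, the genes most like *Osm* over the 16 clusters with at least 50 cells were *Arl11*, *Hlx* and *Slc37a2* (Pearson r of log2(CPM + 10) 0.997, 0.996 and 0.996). *Osmr* was most like *Map4k5*, *Per3* and *Zfp532* (0.958, 0.944 and 0.929), *Lifr* like *Cryl1*, *Smad1* and *Dctn2* (0.912, 0.882 and 0.881), *Il6st* like *Axl*, *Katnal1* and *Arhgef40* (0.989, 0.983 and 0.975), and *Socs3* like *Klhl5*, *Creg1* and *Phyh* (0.926, 0.918 and 0.903). The genes depended on the measure. By Spearman rho, *Osm* was most like *Gab3*, *Rinl* and *Zmiz1* (0.909, 0.897 and 0.897), while *Map4k5*, *Cryl1*, *Axl* and *Klhl5* stayed first for *Osmr*, *Lifr*, *Il6st* and *Socs3*. Over the 28 clusters of both libraries, Pearson r put *Arl11* first for *Osm* and *Map4k5* for *Osmr*, but *Palmd*, *Slc36a4* and *Lamp2* for *Lifr*, *Il6st* and *Socs3*. The values in W are descriptions over clusters of a single library, which share its depth and free RNA.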

How the data were processed

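Mouse corneas were dissociated and sequenced on the 10x Genomics platform in 2 libraries. The authors used Cell Ranger 3.1.0 (the methods name the mm10 reference, the labels mm9) and Seurat, filtered cells, removed doublets and some cells with a dissociation signature, and deposited UMI counts without normalization and a cluster number for each cell. The deposited table holds fewer cells than the study states. The members and gene lists were chosen with earlier results of these data known. Here, counts were summed over the cells of a deposited cluster or class in each library and given as CPM with exact Poisson 95% intervals, ratios with exact conditional binomial intervals and shares with Clopper-Pearson intervals. A sum of 0 allows up to 3 counts. Classes were named by the highest mean score over fixed markers, unless their 10 leading genes (fold of CPM + 1) held more markers of another list, or cells were shallow without a marker leading. This fold was settled after the names under both measures had been seen. Without the pseudocount clusters 0 and 16 would be unnamed and cluster 13 neutrophil-like. Clusters 10 and 17 were left unnamed by judgement, although cluster 10 scored highest on the corneal endothelial list. Of that list *Col8a1* was among its leading genes, and every marker was higher there than in any other cluster. A share is of cells with a UMI. Named genes were the 10 members, and from 3 fixed lists those past 2-fold and at least the 3 largest and smallest ratios, except for some genes that are counted in the lists but not reported here. Alternatives were TMM (edgeR 4.0.16), median-of-ratios factors (DESeq2 1.42.0), mean CPM per cell, equal weight of clusters, a stricter filter (1000 genes, 5% mitochondrial UMIs), leaving out earlier doublet calls, thinning to 2000 or 5000 UMIs, and count minimums of 100 or 1. Thinning to 5000 UMIs for the *Arg1* split was chosen after seeing the data. Python 3.11.15, numpy 2.4.6, scipy 1.17.1 and R 4.3.3 were used, and the computations were tested on simulated data. Total UMIs were 367166822 in UW and 289586482 in W.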

Additional observations from a re-analysis of the deposited data

Results flagged for a closer look

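Ratios of some members went in opposite directions in CEpC-like cells and in CSC-like cells or cluster 10, with both counting intervals clear of 0. The differences between classes were not tested. *Osmr* had a log2 ratio, W over UW, of 1.50 in CSC-like cells and 1.60 in cluster 10, against -0.42 in CEpC-like cells. *Lifr* had 0.79 in CSC-like cells and 1.69 in cluster 10, against -0.93. *Il6st* had 1.17 and 0.54, against -0.22. *Il6* had 1.42 in cluster 10 against -1.26, on 18 and 70 UMIs in UW and W in cluster 10 and 190 and 57 in CEpC-like cells. *Stat3* had 0.30 in cluster 10 against -0.57. *Krt12*, an epithelial gene, was at 1554 CPM in CSC-like cells of UW and 736 CPM in those of W, and at 1791 and 871 CPM in cluster 10. *Krt14*, another epithelial gene, was higher in W, at 57.4 and 821 CPM in CSC-like cells and 88.6 and 1002 CPM in cluster 10. In the CEpC-like cells themselves *Krt12* was at 26750 CPM in UW and 12350 CPM in W, and *Krt14* at 514 and 11190 CPM. The part of epithelial RNA in these ratios was not tested.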

How the results depend on the processing

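Of 178 alternative values of 28 member ratios, 177 kept their direction and 165 also their side of 2-fold, and of the 96 for the 15 ratios past 2-fold, 92 stayed past it. The exception in direction was *Il6* in CSC-like cells, 0.05 at own depth and -0.45 thinned to 5000 UMIs. Scaled by TMM and by size factors, the log2 ratios in CEpC-like cells were 1.43 and 1.42 for *Lif*, 2.008 and 2.002 for *Clcf1*, -0.62 and -0.63 for *Osmr*, -1.14 and -1.14 for *Lifr*, -0.43 and -0.43 for *Il6st*, and -2.02 and -2.03 for *Socs3*, and in CSC-like cells 1.325 and 1.33 for *Il6st* and -1.19 and -1.19 for *Socs3*. As means over cells, they were 1.32 for *Lif*, -1.06 for *Lifr*, -0.42 for *Il6st* and -1.78 for *Socs3* in CEpC-like cells, and -1.20 for *Socs3* in CSC-like cells. With epithelial clusters weighted alike they were 0.24 for *Lif*, 1.87 for *Clcf1*, -0.51 for *Osmr*, -1.22 for *Lifr*, -1.05 for *Il6st* and -2.235 for *Socs3*. Thinned to 5000 UMIs they were 1.41, -0.39 and -1.75 for *Lif*, *Il6st* and *Socs3* in CEpC-like cells and -1.24 for *Socs3* in CSC-like cells. The stricter cell filter gave -1.88 for *Socs3* in CEpC-like cells, and put 25.3% of W *Osm* UMIs in cluster 13 and 41.8% in cluster 15, in place of 31.5% and 36.8%. The share of cluster 15 cells with *Osm* was 15.9% and 33.1% thinned to 2000 and 5000 UMIs, and the *Osm* ratio of cells with over cells without *Arg1* was 0.66 in cluster 14 and 0.23 in cluster 15 thinned to 2000 UMIs. With a minimum of 100 UMIs, 587 genes were higher and 867 lower in CSC-like cells, 310 higher and 275 lower in cluster 10, and 3 members higher in cluster 10, since fewer genes were counted. With 1 UMI in each library, 1297 were lower in cluster 10. Scaled by TMM or size factors, an alternative added after seeing the data, 8 of the 16 immediate early genes were at least 2-fold lower in CEpC-like cells, in place of 3, and 11 of 23 STAT3 genes were higher in CSC-like cells and 10 of 23 in cluster 10, in place of 9 and 9. Where no construction explains a change, the cause was not tested. No paired analysis was possible because each condition has 1 library, and no replicate could be left out. With 1 library per condition, depth sets only the counting error, which is wide for members of few UMIs, such as *Osm*, *Lif*, *Il6* and *Il11* in cluster 10.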
